A study of Homo sapiens with 12 samples.

Results

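The data are the 6 libraries, of 12 in the series, from the transient knockdown of *BACH1* in AsPC-1 cells, a long established line from a human pancreatic ductal adenocarcinoma. The members were chosen by their titles: 3 libraries labelled siBACH1 and 3 labelled siCont, each a count of reads per gene. Per the labels' protocols, a Stealth small interfering RNA (siRNA) duplex against *BACH1* was delivered with Lipofectamine RNAiMAX, and cells were harvested 24 h later. The siCont cells are labelled control, and the labels describe no control duplex and no untransfected cells. Cells for all 6 libraries were grown in the same serum-containing medium, and their total RNA was depleted of ribosomal RNA before sequencing on an Ion Proton. The sources used here give neither the siRNA's sequence nor the number of duplexes, so the experiment is 1 reagent at 1 time in 1 cell line. Of 57820 gene identifiers, 14591 passed the expression filter and were tested. The other 6 libraries, a lentiviral CRISPR knockout of *BACH1* (sgBACH1) selected with puromycin and its control (sgCont), serve below only for comparison. They give second values beside genes and groups of genes, and enter a test of the difference between the experiments. The question is which transcripts outside the known BACH1 programme move within a day of its knockdown.

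BACH1 is a heme-binding repressor of transcription that pairs with small MAF proteins and occupies the antioxidant response elements that the activator NRF2 also uses. Its best known targets serve antioxidant defence, heme breakdown and iron storage, and in carcinomas it has been studied for cell migration and metastasis. The genes described here lie outside those lists, apart from *ME1*, which is shown in a search of promoters. An siRNA guides the Argonaute complex to a fully complementary transcript, and the same guide strand can also lower other transcripts whose 3′ untranslated regions (3′ UTRs) pair with its seed, the bases near its 5′ end.

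*BACH1* (ENSG00000156273.11, chromosome 21) stood at 196, 293 and 196 CPM in siCont and at 24.9, 27.7 and 24.6 CPM in siBACH1, where CPM is the read count relative to the size of its library, scaled by TMM, and values follow replicates 1 to 3. All siBACH1 libraries lay far below all siCont libraries. The log2 fold change was -3.15 ± 0.17 (± standard error, as for every change below, all on the log2 scale) with all libraries (edgeR adjusted p = 4.09e-06) and -2.94 ± 0.071 without siCont replicate 2. In bulk libraries fewer cells and less RNA per cell cannot be told apart. A two-sided exact permutation test over the 6 libraries gave p = 0.1, the smallest that 3 against 3 allow. The libraries held 13099706 to 21478886 counts. Markers of ductal epithelium were abundant, summing to 13410.0 to 15640.0 CPM in siCont and 15750.0 to 16020.0 CPM in siBACH1 over 10 genes, led by *KRT8*, *KRT19*, *KRT18* and *CEACAM6*. Of 10 ductal markers 9 passed the filter. The hormones *INS*, *GCG*, *SST*, *PPY* and *IAPP*, the acinar enzymes *AMY2A* and *CTRB1* and the fibroblast marker *FAP* had 0 counts. No acinar or endothelial marker passed the filter, and their sums stayed at or below 1.01 and 0.702 CPM. Of the fibroblast markers *LUM* alone was abundant, at 297, 306 and 293 CPM in siCont and at 337, 357 and 355 CPM in siBACH1, and of the blood markers *LYZ* (84.8, 125 and 80.1 CPM in siCont and at 76.3, 78.0 and 78.6 CPM in siBACH1) and *CD14* (2.04, 2.07 and 2.76 CPM in siCont and at 0.973, 0.652 and 0.826 CPM in siBACH1) were tested.

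Replicate 2 of siCont stood apart from its group. The chi-square statistic per degree of freedom over genes was 30.55 and 35.84 between it and siCont replicates 1 and 3, against 8.894 between those 2 and 6.857 to 8.452 among the siBACH1 libraries. It lay over 2-fold above both other siCont libraries in 146 genes and over 2-fold below both in 53 (of 9857 genes with a mean of at least 8 CPM), while no other siRNA library did so in more than 2 genes in either direction. Counts for lists are therefore given with all libraries and, beside them, without siCont replicate 2. Values of single genes are with all libraries unless the other fit is named.

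With all libraries 3481 of 14591 genes (23.9%) were called at an edgeR adjusted p below 0.05, of which 1586 (10.9%) rose and 1895 (13.0%) fell in siBACH1. Changes of over 1 in log2 were 233 rises and 636 falls. The groups did not overlap in 6201 genes (42.5%). Without siCont replicate 2, 5121 of 15112 genes (33.9%) were called, 2513 (16.6%) upwards and 2608 (17.3%) downwards. Of the 3481 genes, 3413 kept call and direction without that library, 68 lost the call and 0 were called the other way. A further 1661 genes tested in both fits were called only without it, 936 up and 725 down. In 46 of these the fitted sign also turned, 40 of them from down to up. Of the genes called in both fits, 114 had a log2 change over 1.5 times larger with siCont replicate 2 than without it, 92 of them falls, and 1 had the reverse. Called genes were mostly protein-coding: 27.8% of 11699 protein-coding genes were called, 13.4% of 313 lincRNA genes, 8.95% of 380 antisense genes, 5.65% of 124 snoRNA genes and 2.82% of 1028 processed pseudogenes.

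**Figure D1:**
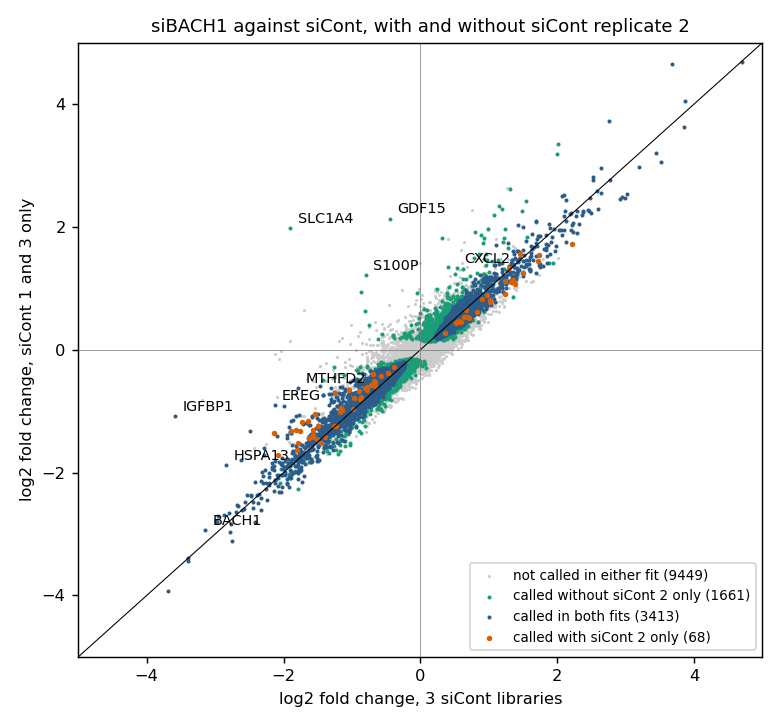
Each point is a gene tested in both fits (14591 genes, 1 of them outside the plotted range). The x axis is the log2 fold change of siBACH1 against 3 siCont libraries and the y axis that against siCont replicates 1 and 3, and the diagonal marks equal values. Most called genes lie near the diagonal, while *SLC1A4*, *GDF15* and *S100P* change sign and *IGFBP1* and *EREG* shrink.

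Many of the genes that fell share a short sequence in their 3′ UTRs, and since it runs through most of the groups below it is shown first. The 7-base words AACATTA and ACATTAA, which together make the 8-base word AACATTAA, were searched on the transcript strand of annotated 3′ UTRs (GENCODE 29, GRCh38), and either word counts as a match. The words were chosen with earlier results of these same data known. Their shares among genes that fell are therefore descriptions and no independent support. The sites below are 1 match each from 9 of the genes with the largest falls that carry one, with the 8-base or 7-base word in capitals; they are shown because these transcripts are among those that fell furthest. *PBK* also carries a match, and its site is not shown. Stretches are written 5′ to 3′ on the strand of the gene.
BACH1 (chr21:29345237-29345262, plus strand): gcctattttAACATTAActtctaaag
CPD (chr17:30465186-30465211, plus strand): gaatccagaAACATTAAggcagggac
SKAP2 (chr7:26669546-26669570, minus strand): gttttattaAACATTActtatcttt
PAQR3 (chr4:78918314-78918339, minus strand): gacattgttAACATTAAaaaatattt
TGFBR1 (chr9:99149901-99149925, plus strand): cttattcagAACATTAcatgccttc
ANO6 (chr12:45432056-45432081, plus strand): atttcataaAACATTAAttcacaatg
LONRF2 (chr2:100283346-100283371, minus strand): atatacaaaAACATTAAaaaatctgc
TMEM267 (chr5:43446148-43446173, minus strand): agagtagccAACATTAAagttaattt
OSTM1 (chr6:108043507-108043532, minus strand): tttgttgtaAACATTAAgaatataaa

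The share of genes that fell followed the length of the match. Of 818 tested genes with the 8-base word, 47.2% fell and 4.28% rose, and their median log2 change was -0.44. Genes with both 7-base words at separate places fell in 39.4% of 282 cases, those with AACATTA alone in 27.8% of 789 and those with ACATTAA alone in 24.2% of 988. Only the 6-base core ACATTA was found in 1193 genes, of which 14.1% fell, and none of these words in 7582 genes, of which 8.31% fell and 15.1% rose. Median 3′ UTR length differed among these classes, from 856 bases without any word to 3340 bases with the 8-base word (the longest 3′ UTR per gene). Within 3′ UTRs of up to 1000 bases 31.4% of 309 genes with a match fell against 8.85% of 4406 without one. From 1000 to 2500 bases the shares were 33.2% of 901 and 9.20% of 2793, and above 2500 bases 33.5% of 1667 and 9.58% of 1576. The gap between genes with and without a match was thus of similar size in each range of length. The pattern was kept without siCont replicate 2, where 53.2% of genes with the 8-base word and 13.4% of genes with none fell. In the knockout experiment, where 3407 of 14469 genes (23.5%) were called, the same 8-base class rose in 14.4% and fell in 13.8% of 805 genes, with a median log2 change of 0.038.

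**Figure D2:**
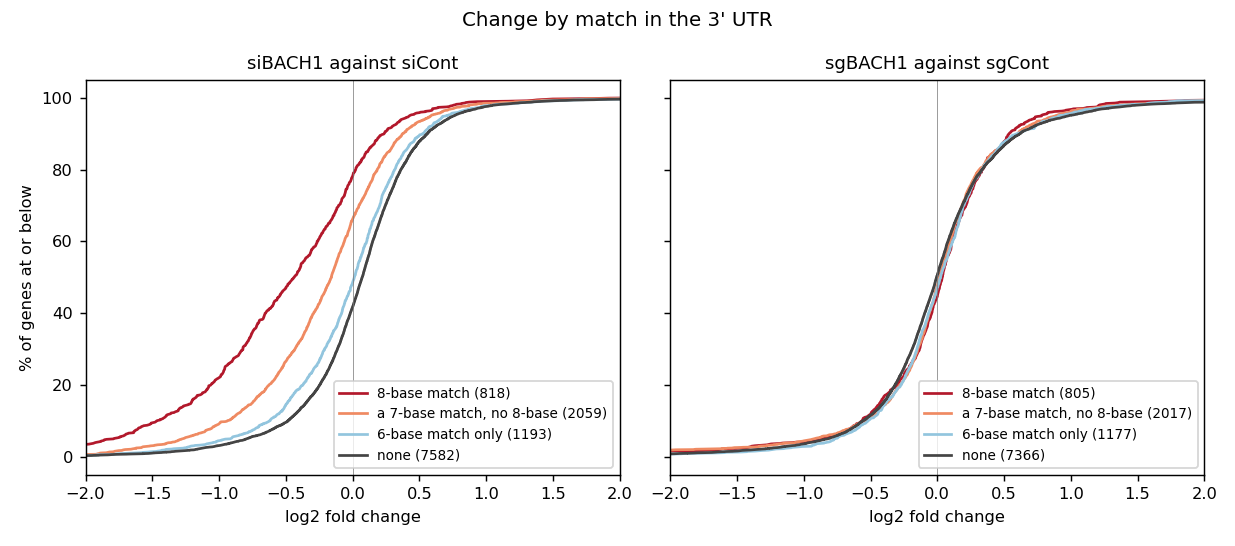
Cumulative distribution of the log2 fold change (x axis) in % of genes (y axis) by the longest word found in the 3′ UTR, for siBACH1 against siCont (left) and sgBACH1 against sgCont (right), with the number of genes in brackets. Curves of the siRNA experiment separate in the order of match length, with a median of -0.44 for the 8-base word, and those of the knockout nearly coincide.

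Of 1753 genes that fell and have an annotated 3′ UTR, 955 (54.5%) carried a match, against 196 of 1500 (13.1%) that rose and 1726 of 8399 (20.6%) that were not called. The share was 60.3% of 63 genes that fell by over 2 and 51.5% of 1207 that fell by under 1 on the log2 scale. Genes that fell without a match were called down in the knockout in 23.5% of cases and up in 13.8% (of 789 tested there). Genes that fell with a match were called down there in 14.9% and up in 15.8% of 951. With every gene that carries a match removed from the fit, 1934 of 11727 genes were called, 929 up and 1005 down. In the fit with all genes, the 11714 tested genes without a match gave 1390 rises and 940 falls. The match stands beside the falls below as a measured value, and its part in them was not tested. It is not named for every gene, and a fall given without it may carry one. Of all tested genes with a 3′ UTR, 2877 of 11652 carried a match. Of the falls in lists below, it was carried by 4 of 5 for Hippo and YAP (7 of all 20 tested), 3 of 5 for mitosis (7 of 43) and 4 of 8 for hypoxia (10 of 22). For interferon and for insulin, PI3K and mTOR it was 4 of 9 each (10 of 38 and 8 of 29 tested), and for integrins and laminins 3 of 8 (5 of 25). For p53 targets and damage it was 1 of 6 (8 of 32 tested) and for NF-kB and cytokines 1 of 4 (6 of 28).

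Ranked were genes called in both fits, at 3 or more in mean log2 CPM, with groups that do not overlap and outside the antioxidant, heme, epithelial and mesenchymal lists. Their largest rises were of mixed function. *C2orf72*, a little studied gene (ENSG00000204128.5, chromosome 2), stood at 21.3, 13.8 and 20.5 CPM in siCont and at 105, 94.5 and 106 CPM in siBACH1. Its siBACH1 values were all several times those of siCont, a log2 change of 2.45 ± 0.15 (edgeR adjusted p = 9.87e-06). *UNKL*, a putative ubiquitin ligase related to unkempt, rose by 2.21 ± 0.12. *RGCC*, a cell cycle regulator induced by complement, rose by 2.22 ± 0.26, *RAB3IL1*, an exchange factor for RAB3A, by 1.96 ± 0.14, and *LBH*, a transcription cofactor of limb and heart development, by 1.90 ± 0.16. *IGSF9* and *NRCAM*, adhesion proteins of the immunoglobulin superfamily, rose by 1.89 ± 0.17 and 1.71 ± 0.13, and *FADS3*, of the fatty acid desaturase cluster, by 1.71 ± 0.16. *CDX2*, the homeobox factor that specifies intestinal epithelium, stood at 38.3, 22.3 and 36.7 CPM in siCont and at 122, 116 and 109.8 CPM in siBACH1. The groups were well apart, with siCont replicate 2 the lowest library, and the log2 change was 1.83 ± 0.18 (edgeR adjusted p = 0.000116). *CLU*, the secreted chaperone clusterin, rose by 1.69 ± 0.13, the chemokine gene *CXCL3* by 1.54 ± 0.20 and *FBXL16*, an F-box protein, by 1.5 ± 0.19. Of these 12 genes, *NRCAM* and *CLU* alone carried a match. *C2orf72*, *UNKL*, *RGCC*, *IGSF9*, *FADS3*, *NRCAM*, *CDX2*, *CXCL3* and *CLU* were also called up in the knockout, where *NRCAM* rose by 4.21 and *C2orf72* by 2.40. *UNKL* and *FBXL16* overlap a gene on the opposite strand and *CLU* one on its own, so their counts are uncertain.

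Among the largest falls, *PLAT*, tissue plasminogen activator (ENSG00000104368.13, chromosome 8), stood at 262, 93.4 and 286 CPM in siCont and at 33.6, 33.7 and 28.3 CPM in siBACH1. Replicate 2 of siCont was the lowest of its group and still lay above every siBACH1 library. The log2 change was -2.75 ± 0.35 with that library (edgeR adjusted p = 0.000594) and -3.12 ± 0.073 without it. *PLAT* carried no match and also fell in the knockout (-1.52). *CPD*, carboxypeptidase D of the trans-Golgi network (ENSG00000108582.7, chromosome 17), stood at 204, 256 and 192 CPM in siCont and at 28.1, 32.0 and 33.6 CPM in siBACH1. *SKAP2*, an adaptor of SRC family kinases, stood at 326, 368 and 328 CPM in siCont and at 54.4, 52.3 and 50.9 CPM in siBACH1. Both sets of groups lay far apart with tight siBACH1 values, and the log2 changes were -2.79 ± 0.13 and -2.70 ± 0.084. *PAQR3*, a Golgi membrane protein, fell by 2.61 ± 0.24, *PBK*, a mitotic kinase, by 2.58 ± 0.13, and *TGFBR1*, the type I receptor of transforming growth factor beta, by 2.67 ± 0.17. *ANO6*, a calcium-activated phospholipid scramblase, fell by 2.53 ± 0.14, *LONRF2*, a RING finger protein, by 2.39 ± 0.13 and *DPY19L1*, a C-mannosyltransferase, by 2.21 ± 0.078. *TMEM267*, a membrane protein of little known function, and *OSTM1*, a lysosomal partner of the chloride transporter CLC-7, fell by 2.42 ± 0.27 and 2.33 ± 0.19. Besides *BACH1* itself, 9 of the 11 carried a match, and *PLAT* and *DPY19L1* did not. In the knockout *CPD*, *SKAP2*, *PAQR3*, *PBK*, *LONRF2* and *DPY19L1* were called up. *BACH1*, *PAQR3* and *ANO6* overlap a gene on the opposite strand, and *BACH1* also one on its own, so their counts are uncertain.

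**Figure D3:**
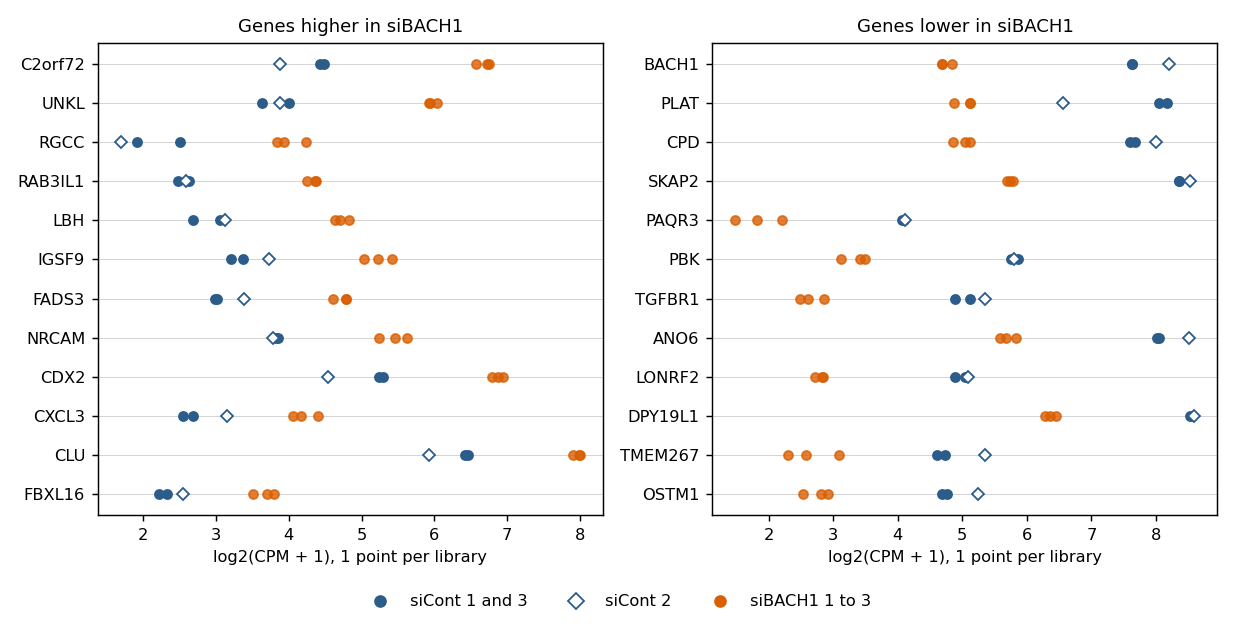
Levels of the 24 named genes in each siRNA library as log2(CPM + 1), with the genes that rose on the left and those that fell on the right. Filled blue points are siCont replicates 1 and 3, open diamonds siCont replicate 2 and orange points siBACH1. In every gene all siBACH1 points lie on one side of all siCont points, as the rule of choice required.

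Genes were next grouped into 48 lists by pathway or family. The background is the 23.9% of all genes called, with a median log2 change of 0.005. Signalling by epidermal growth factor and its relatives runs from secreted ligands through receptors and a kinase cascade to ERK, whose activity induces early transcription factors and its own inhibitors. Of 37 tested genes of this pathway 4 rose and 18 fell (median -0.62), and without siCont replicate 2 5 rose and 19 fell (median -0.33). The ligand gene *EREG*, epiregulin, stood at 46.5, 259 and 56.1 CPM in siCont and at 24.5, 30.0 and 27.8 CPM in siBACH1. Its siCont replicate 2 value was several times the others, and the log2 change was -2.13 ± 0.57 with and -0.91 ± 0.11 without that library. The other falling ligand, *TGFA*, changed by -1.32 ± 0.16, and the receptors *MET* and *ERBB3* by -0.69 ± 0.17 and -0.29 ± 0.076. The GTPase gene *NRAS* and the kinase gene *BRAF* rose by 0.34 ± 0.086 and 0.57 ± 0.11, as did the adaptor *GRB2* (0.34 ± 0.077).

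Of 10 targets of the pathway 7 fell and 0 rose (8 and 1 without siCont replicate 2), and of 7 inhibitors 4 fell and 0 rose in either fit. *FOS*, an early response factor, stood at 67.3, 75.0 and 69.0 CPM in siCont and at 22.4, 21.3 and 18.1 CPM in siBACH1, and the siCont libraries agreed closely. Its log2 change was -1.77 ± 0.11 (edgeR adjusted p = 8.38e-06). *DUSP6*, the phosphatase that inactivates ERK, stood at 196, 237 and 195 CPM in siCont and at 85.3, 81.2 and 80.5 CPM in siBACH1, a log2 change of -1.35 ± 0.10. *EGR1* changed by -1.77 ± 0.39 with and -1.06 without siCont replicate 2, *FOSB* by -1.43 and -0.73, and *PHLDA1*, *ETV5*, *IER3* and *JUNB* by -1.39, -1.18, -0.97 and -0.86. The inhibitors *SPRED1*, *SPRY4* and *SPRED2* fell by 1.16 ± 0.11, 0.65 ± 0.094 and 0.61 ± 0.13. Of the 18 genes that fell 12 carried the 3′ UTR match, *EREG* and *FOS* among them, while *DUSP6*, *EGR1*, *JUNB*, *IER3*, *SPRY4* and *ERBB3* did not. Among the 22 members without a match 3 rose and 6 fell. *DUSP6* overlaps a gene on the opposite strand. *EREG* and *FOSB* were not called by limma-voom (adjusted p = 0.0678 and 0.0685).

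The transforming growth factor beta and bone morphogenetic protein (BMP) pathways signal through paired receptor kinases and SMAD factors. Of 32 tested genes 5 rose and 9 fell (6 and 13 without siCont replicate 2). Receptors made up 3 of the falls: besides *TGFBR1*, the BMP receptors *ACVR1* and *BMPR2* fell by 1.13 ± 0.12 and 1.09 ± 0.10. The ligand gene *BMP2* stood at 8.35, 6.37 and 8.99 CPM in siCont and at 23.3, 21.8 and 24.1 CPM in siBACH1, well apart between groups, a log2 change of 1.54 ± 0.15. *NOG*, the secreted BMP antagonist noggin, stood at 3.79, 5.57 and 4.11 CPM in siCont and at 0.912, 1.55 and 0.826 CPM in siBACH1. Its siBACH1 libraries were all lower, a log2 change of -2.02 ± 0.33, with a knockout value of -1.81. The target *ID1* changed by -0.94 ± 0.15, *ID2* by 0.58 ± 0.17, and *SMAD3* by -0.72 ± 0.10. *TGFBR1*, *ACVR1*, *BMPR2*, *SMAD3* and *SKIL* carried the match.

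In insulin, PI3K and mTOR signalling, in which kinases downstream of insulin-type receptors drive growth, 7 of 29 genes rose and 9 fell (10 and 12 without siCont replicate 2). *RICTOR*, which defines mTOR complex 2, stood at 122, 152 and 122 CPM in siCont and at 53.1, 47.7 and 49.1 CPM in siBACH1. All siBACH1 libraries were lower, a log2 change of -1.40 ± 0.11 (edgeR adjusted p = 3.1e-05). It carried the match and overlaps a gene on the opposite strand. *IGFBP1*, an insulin-like growth factor binding protein, stood at 19.9, 290.4 and 18.5 CPM in siCont and at 7.66, 9.12 and 10.4 CPM in siBACH1. Replicate 2 of siCont was more than 10 times the rest of its group, and the log2 change was -3.58 ± 0.99 with it and -1.08 ± 0.15 without it. By limma-voom *IGFBP1* was not called (adjusted p = 0.17). The receptors *IGF1R* and *INSR* rose by 0.61 ± 0.074 and 0.44 ± 0.093, the GTPase *RHEB* by 0.76 ± 0.21 and its inhibitor *TSC1* by 0.72 ± 0.10.

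The Hippo kinases that restrain the coactivator YAP moved in both directions: of 20 genes 5 rose and 5 fell (7 and 6 of 21 without siCont replicate 2). *LATS2* rose by 0.78 ± 0.21 and *LATS1* fell by 0.89 ± 0.10, the kinase cofactors *MOB1A* and *MOB1B* fell by 0.94 ± 0.072 and 0.50 ± 0.14, and *YAP1* rose by 0.66 ± 0.081. In the Notch list 4 of 19 genes rose and 4 fell (9 and 4 of 20 without siCont replicate 2), led by *MFNG*, a glycosyltransferase that modifies Notch, at 1.05, 0.0796 and 0.529 CPM in siCont and at 4.50, 4.26 and 4.18 CPM in siBACH1. These are low values, but the groups did not overlap, and the log2 change was 2.91 ± 0.50 (edgeR adjusted p = 0.00295). *NOTCH1* rose by 0.69 ± 0.17 and the target *HES1* fell by 0.52 ± 0.094. In the Wnt list 8 of 31 genes rose and 5 fell (9 and 8). *AXIN2*, a feedback inhibitor and target of the pathway, rose by 1.19 ± 0.26, *AXIN1* by 0.74 ± 0.071 and the ligand *WNT7B* by 0.71 ± 0.12. The receptor *FZD6*, with a match, fell by 1.98 ± 0.11, the ligand *WNT10A* by 0.98 ± 0.13 and *MYC* by 0.32 ± 0.080.

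Secreted and membrane proteins are folded in the endoplasmic reticulum (ER). Of 35 tested genes for ER folding and the unfolded protein response 0 rose and 19 fell (median -0.43), and without siCont replicate 2 2 rose and 20 fell (median -0.31). Chaperones accounted for 13 of the falls, out of 16 tested. *PDIA6*, a protein disulfide isomerase, stood at 408, 393 and 392 CPM in siCont and at 168, 183 and 177 CPM in siBACH1. The 3 siCont libraries agreed, all siBACH1 libraries were lower, and the log2 change was -1.17 ± 0.071 (edgeR adjusted p = 7.72e-06). *HSPA13*, an ER-associated relative of HSP70, stood at 41.1, 150.2 and 36.1 CPM in siCont and at 11.1, 9.92 and 10.5 CPM in siBACH1, with siCont replicate 2 far above the others, a log2 change of -2.84 ± 0.50 with it and -1.88 ± 0.12 without it. The cochaperone *DNAJB9* changed by -2.28 ± 0.43 and -1.60 ± 0.24, and the central chaperone *HSPA5*, BiP, by -0.76 ± 0.19 and -0.46 ± 0.059. *SDF2L1* fell by 0.99 ± 0.20, *DNAJC3* by 0.76 ± 0.093, and of the degradation factors *EDEM3* and *SEL1L* fell by 1.07 ± 0.11 and 0.89 ± 0.18. The sensors did not pass with all libraries, and *XBP1* stood at 82.4, 218 and 81.7 CPM in siCont and at 97.4, 88.6 and 102 CPM in siBACH1, with a log2 change of -0.41 ± 0.33 that turned to 0.22 without siCont replicate 2. A match was carried by 6 of the 19, so 13 of the falls had none. Of all 35 tested, 7 carried one. In the knockout 2 of the 35 rose and 6 fell, and of the 19 genes that fell in siBACH1 3 were called down and 1 up there. The fitted knockout values of *PDIA6*, *HSPA5* and *DNAJB9* were 0.13, 0.090 and 0.042. The test of the difference between the experiments, which called 3687 of 15644 genes (23.6%), called all 3 (edgeR adjusted p = 6.61e-08, 0.00787 and 0.00344). That test included siCont replicate 2, which enlarged the falls of *HSPA5* and *DNAJB9*, and its values without that library are not given here. In transport from ER to Golgi, 1 of 42 genes rose and 8 fell (5 and 13 without siCont replicate 2), led by the cargo receptor *LMAN1* at -1.79 ± 0.088, with a match.

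The response of ATF4, the factor that raises amino acid uptake and synthesis when translation is restrained, depended on siCont replicate 2. With all libraries 0 of 34 genes rose and 6 fell (median -0.64). Without siCont replicate 2, 9 of 35 rose and 8 fell (median 0.00073). That library was the highest siCont library in 32 of the 34 genes, against 5994 of all 14591 genes tested. *SLC1A4*, a transporter of serine and other neutral amino acids, stood at 0.842, 32.1 and 0.646 CPM in siCont and at 4.32, 2.26 and 2.34 CPM in siBACH1. Replicate 2 of siCont was high and the others were below every siBACH1 library, so that the log2 change was -1.90 ± 1.16 with all libraries (edgeR adjusted p = 0.271) and 1.98 ± 0.45 without it (edgeR adjusted p = 0.00133). *PSAT1*, of serine synthesis, stood at 34.7, 154 and 29.8 CPM in siCont and at 11.5, 14.1 and 13.0 CPM in siBACH1, a change of -2.48 ± 0.56 that was -1.32 ± 0.13 without that library. *MTHFD2*, a mitochondrial folate enzyme, changed by -1.79 and -0.63, *DDIT4*, an inhibitor of mTOR complex 1, by -1.99 and -0.92, and the glutamine transporter *SLC38A2* by -1.31 and -0.72. *CEBPG* and *PYCR1* had fitted changes of -0.030 ± 0.26 and 0.32 ± 0.18, not called, and without siCont replicate 2 of 0.44 ± 0.076 and 0.59 ± 0.063, both called up. Other genes outside the list did the same. *GDF15*, a stress-induced relative of transforming growth factor beta, stood at 3.58, 52.8 and 2.94 CPM in siCont and at 14.8, 14.2 and 13.9 CPM in siBACH1, *VEGFA*, the vascular growth factor, at 29.3, 122 and 33.0 CPM in siCont and at 58.5, 57.2 and 62.2 CPM in siBACH1, and *S100P* at 7.86, 70.6 and 5.88 CPM in siCont and at 14.5, 16.7 and 16.6 CPM in siBACH1. In each of the 3 the siBACH1 libraries lay between siCont replicate 2 and the other siCont libraries. Their log2 changes were -0.44 ± 0.86, -0.046 ± 0.45 and -0.80 ± 0.76 with all libraries, none of them called, and 2.13 ± 0.19, 0.92 ± 0.091 and 1.22 ± 0.17 without it, all called up. *MTHFD2* was not called by limma-voom or DESeq2 (adjusted p = 0.0934 and 0.0592). What sets siCont replicate 2 apart was not tested.

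**Figure D4:**
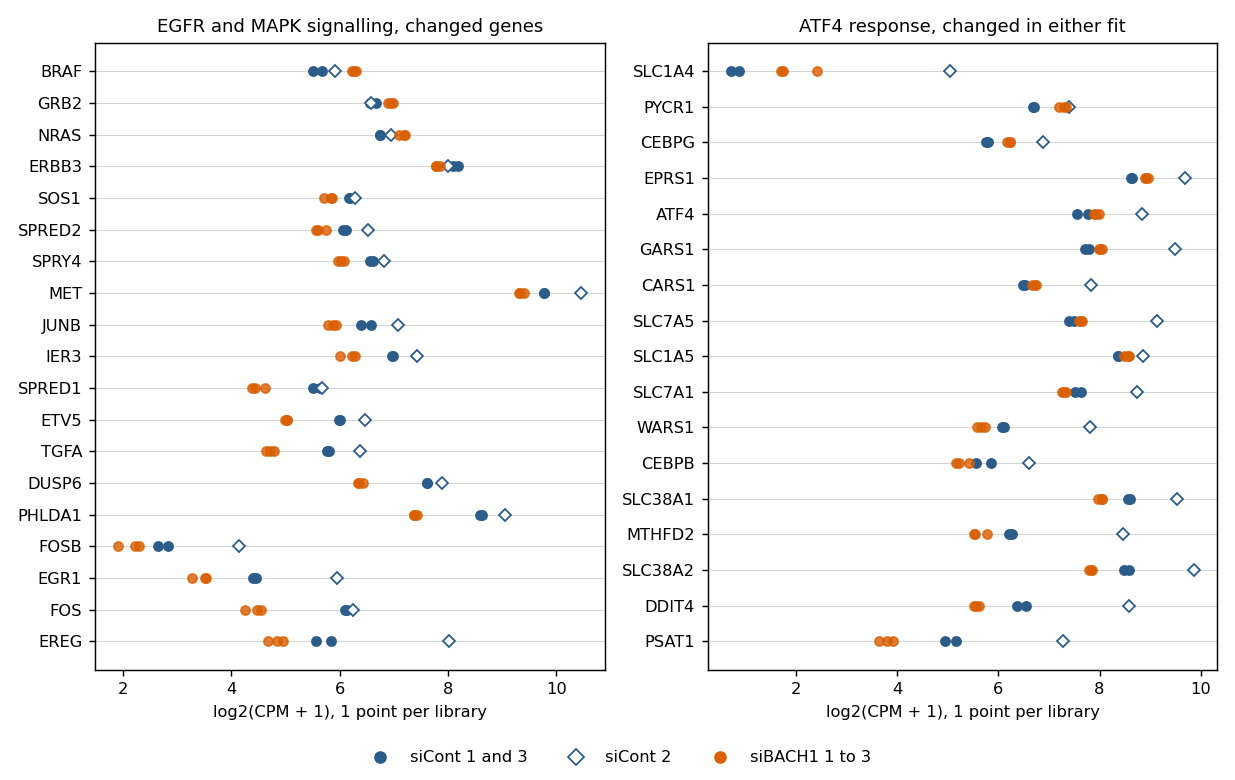
Levels as log2(CPM + 1) in each siRNA library for called genes of EGFR and MAPK signalling (left, 19 of 22) and the genes of the ATF4 response called in either fit (right). Open diamonds, siCont replicate 2, lie above the filled blue siCont points in most rows of the right panel, by the widest margin in *SLC1A4*.

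In housekeeping complexes the share of genes called was 33.3% for the proteasome, 19.8% for cytosolic ribosomal proteins and 13.9% for the nuclear respiratory chain, against 23.9% of all genes. Of 33 proteasome subunits 1 rose and 10 fell (1 and 16 without siCont replicate 2). *PSMB5*, the chymotrypsin-like catalytic subunit, stood at 83.2, 73.2 and 79.7 CPM in siCont and at 19.6, 20.9 and 22.3 CPM in siBACH1, far apart between groups, a log2 change of -1.91 ± 0.10 (edgeR adjusted p = 3.8e-06). The deubiquitinase subunit *PSMD14* fell by 0.98 ± 0.13 and *PSMD2* by 0.63 ± 0.071, while *PSMD1* rose by 0.67 ± 0.076; 3 of the 10 falls carried a match, *PSMB5* among them. Of 81 cytosolic ribosomal protein genes 14 rose and 2 fell (21 and 5 without siCont replicate 2), the rises with all libraries by at most 0.44 (*RPL13A*). *RPS24* stood at 730.2, 726 and 721 CPM in siCont and at 213, 230.0 and 208 CPM in siBACH1, and the 2 groups were far apart at -1.74 ± 0.071, with a match; *RPL12* fell by 0.75 ± 0.083. Genes of this family have many processed copies, so their counts are uncertain. Of 72 nuclear genes of the respiratory chain 1 rose and 9 fell (2 and 5 by upper quartile scaling, 3 and 16 without siCont replicate 2), led by *NDUFA8* of complex I at 33.3, 25.1 and 35.4 CPM in siCont and at 7.17, 7.87 and 7.21 CPM in siBACH1. Its groups did not overlap, a log2 change of -2.08 ± 0.16, and *UQCRFS1*, the Rieske protein of complex III, fell by 0.95 ± 0.12; both carried a match. Of the 13 protein genes of mitochondrial DNA 0 were called with all libraries and 2, *MT-CO2* (-0.22) and *MT-ND1* (0.18), without siCont replicate 2.

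In the lysosome and autophagy list 4 of 44 genes rose and 8 fell (7 and 10 without siCont replicate 2). The aspartic protease *CTSD* rose by 1.21 ± 0.078 and the acid glucosidase *GAA* by 0.97 ± 0.23. *MAP1LC3B*, the autophagosome protein LC3B, changed by -2.1 ± 0.43 with and -1.41 ± 0.20 without siCont replicate 2, and the membrane protein *LAMP1* fell by 1.70 ± 0.086, both with a match. Of 22 heat shock genes 1 rose and 4 fell (3 and 7), among them *HSPA4L* (-1.30 ± 0.16) and *CHORDC1* (-1.10 ± 0.17), both with a match.

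In glycolysis and lactate transport 2 of 25 genes rose and 9 fell (2 and 10 without siCont replicate 2), and 2 of the 9 carried a match. *PFKP*, the platelet form of phosphofructokinase, fell by 1.72 ± 0.076 and *PDK1*, a pyruvate dehydrogenase kinase, by 0.71 ± 0.18, both with a match. *LDHA*, lactate dehydrogenase A, *HK1*, *ALDOC*, the glucose transporter *SLC2A1* and *PFKFB4* carried none and fell by 0.58 ± 0.065, 0.78 ± 0.11, 0.81 ± 0.15, 0.70 ± 0.16 and 1.40 ± 0.39. *HK2* and *PFKFB3* rose by 0.43 ± 0.13 and 0.51 ± 0.10. Among 22 genes of the hypoxia response 2 rose and 8 fell (5 and 8). *CA9*, carbonic anhydrase 9, stood at 77.7, 40.2 and 71.9 CPM in siCont and at 15.6, 14.3 and 15.3 CPM in siBACH1, below siCont in every siBACH1 library, a log2 change of -2.07 ± 0.22; it overlaps a gene on the opposite strand. *EGLN3*, *MXI1* and *ERO1A* fell by 0.97 ± 0.21, 0.98 ± 0.18 and 0.93 ± 0.089. In the tricarboxylic acid cycle 1 of 22 genes rose and 1 fell (5 and 2).

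In lipid metabolism 0 of 27 genes of cholesterol synthesis rose and 6 fell (1 and 10 without siCont replicate 2), led by the sterol oxidase *MSMO1* at -1.40 ± 0.17 with a match, then *IDI1* (-0.53 ± 0.15) and *FDPS* (-0.42 ± 0.10). Of 22 genes of fatty acid and lipid synthesis 2 rose and 8 fell (2 and 9). The desaturase *FADS1*, the acyl-CoA synthetase *ACSL3* and the acyltransferase *AGPAT5* carried a match and fell by 1.36 ± 0.30, 0.94 ± 0.081 and 0.70 ± 0.10, and *ELOVL5*, *ACSL1* and *ACSL5* carried none and fell by 0.54 ± 0.083, 0.50 ± 0.14 and 0.50 ± 0.10. In fatty acid oxidation and PPAR targets 4 of 22 rose and 4 fell (6 and 5 of 23). *CD36*, the fatty acid translocase, was low, at 0.351, 0.398 and 0.235 CPM in siCont and at 1.76, 1.05 and 1.47 CPM in siBACH1, with separate groups and a log2 change of 2.12 ± 0.45. The nuclear receptor *PPARA* rose by 0.93 ± 0.11, and the thiolase *ACAA2*, the kinase *PDK4* and the lipid droplet protein *PLIN2* fell by 1.03 ± 0.12, 0.81 ± 0.16 and 0.80 ± 0.13.

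More genes of DNA replication and mitosis rose than fell, by small amounts. Of 39 replication genes 9 rose and 2 fell (12 and 6 without siCont replicate 2), and of 43 mitosis genes 9 rose and 5 fell (15 and 6). *GINS1* and *TK1* rose by 0.69 ± 0.12 and 0.54 ± 0.081, the helicase subunits *MCM5*, *MCM2* and *MCM3* by 0.46 ± 0.084, 0.45 ± 0.090 and 0.41 ± 0.12, and the proliferation marker *MKI67* by 0.43 ± 0.082. *RRM2*, which supplies deoxynucleotides, fell by 0.55 ± 0.075. In mitosis *PBK* fell most, followed by the kinetochore gene *CENPK* (-1.08 ± 0.088), *CCNB1* (-0.49 ± 0.089) and *PLK1* (-0.42 ± 0.084). Of 21 genes of G1 to S control 4 rose and 1 fell (6 and 6): *CDK6* rose by 0.76 ± 0.14, and *E2F5*, with a match, fell by 1.77 ± 0.23. Of 30 replication-dependent histone genes 3 rose and 0 fell (9 and 1 without siCont replicate 2). Among 32 p53 targets and damage genes 3 rose and 6 fell (6 and 9), including *PHLDA3* (-1.15 ± 0.18) and *PLK3* (-1.19 ± 0.33). *CDKN1A*, the inhibitor p21, was not called with all libraries (-1.12 ± 0.38) and fell without siCont replicate 2 (-0.41 ± 0.12). Of 20 apoptosis regulators 2 rose and 2 fell (4 and 2), among them the caspase inhibitor *XIAP* (-0.91 ± 0.16) with a match.

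Of 38 genes of the interferon response 4 rose and 9 fell (8 and 11 without siCont replicate 2). *IFIT1* and *IFIT2*, which bind foreign RNA, changed by -1.71 ± 0.31 and -1.27 ± 0.27, *DDX60* by -1.40 ± 0.17, the ubiquitin-like *ISG15* by -1.31 ± 0.21 and its protease *USP18* by -1.25 ± 0.31. The rises were small, with *STAT2* at 0.41 ± 0.12. The RNA sensor *IFIH1* was called up only without siCont replicate 2, at 1.24 ± 0.25. In the NF-kB and cytokine list 7 of 28 genes rose and 4 fell, and 13 rose and 4 fell without siCont replicate 2. Chemokines gave 4 of the 7 rises: besides *CXCL3*, *CXCL5* stood at 7.16, 13.9 and 5.00 CPM in siCont and at 21.5, 22.8 and 28.3 CPM in siBACH1 and *CXCL1* at 1.54, 2.79 and 2.70 CPM in siCont and at 5.04, 7.17 and 5.6 CPM in siBACH1. The siBACH1 values were all higher, with log2 changes of 1.5 ± 0.31 and 1.34 ± 0.28, and *CXCL16* rose by 0.69 ± 0.10. *CXCL2* and the adhesion gene *ICAM1* were not called with all libraries (0.53 ± 0.42 and 0.62 ± 0.45) and rose without siCont replicate 2 (1.33 ± 0.22 and 1.32 ± 0.40). Counts of *CXCL1*, *CXCL2* and *CXCL3* are uncertain, since these genes are near copies of each other. *NFKBIZ* rose by 0.98 ± 0.12, while *TNFAIP3*, the inhibitor A20, fell by 0.80 ± 0.12 and the cytokine *LIF* by 0.75 ± 0.16. Of 15 genes of MHC class I presentation 1 rose with all libraries and 6 without siCont replicate 2, and 0 fell in either fit.

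Of 19 extracellular proteases, receptors and inhibitors 2 rose and 8 fell (4 and 11 of 20 without siCont replicate 2). Of the 8 *CPD* alone carried a match. After *PLAT* and *CPD*, the metalloproteinase *MMP7* fell by 1.51 ± 0.24, *PLAU*, urokinase, by 1.11 ± 0.10, its receptor *PLAUR* by 0.76 ± 0.15 and the inhibitor *TIMP2* by 1.10 ± 0.11, while *SERPINB5*, maspin, rose by 0.57 ± 0.069. *MMP1* was not called with all libraries (-1.79 ± 0.63) and fell without siCont replicate 2 (-2.27 ± 0.40). Of 25 integrins, laminins and adhesion partners 6 rose and 8 fell (7 and 12 without siCont replicate 2). *ITGB8* fell by 1.36 ± 0.078, *ITGB1* by 0.68 ± 0.12 and *FERMT1*, kindlin 1, by 1.65 ± 0.10. The laminin chains *LAMB1*, *LAMA5* and *LAMC1* rose by 0.78 ± 0.087, 0.73 ± 0.066 and 0.56 ± 0.081. Among 34 genes of actin regulation 5 rose and 4 fell (12 and 5), with *LIMK2*, a kinase that inactivates cofilin, at 1.59 ± 0.23 and *RDX*, radixin, at -1.11 ± 0.10 with a match.

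More lineage factors were higher than lower. Of 24 endodermal and epithelial lineage factors 10 rose and 4 fell (12 and 3 without siCont replicate 2). All 4 that fell carried a match, as did 9 of the 24 tested. *PDX1*, the pancreatic homeobox factor, rose by 1.01 ± 0.23, *GATA4* and *GATA6* by 0.83 ± 0.14 and 0.47 ± 0.087, the hepatocyte nuclear factor *HNF4A* by 0.57 ± 0.11, and *SOX9*, of the ductal lineage, by 0.48 ± 0.10. *PROX1* fell by 1.57 ± 0.47 and was not called without siCont replicate 2 (-1.31 ± 0.57), and *TFAP2A* fell by 0.86 ± 0.21. Of 25 mucins and intestinal-type surface genes 7 rose and 5 fell (9 and 5), and none of the 5 carried a match. Beside *CDX2*, *GUCY2C*, the intestinal receptor guanylate cyclase C, stood at 0.561, 1.35 and 0.117 CPM in siCont and at 4.44, 4.71 and 3.95 CPM in siBACH1, and *CEACAM7* at 0.772, 0 and 0.588 CPM in siCont and at 4.25, 3.81 and 3.35 CPM in siBACH1. Both were nearly silent in siCont and higher in every siBACH1 library, by 2.76 ± 0.54 and 2.99 ± 0.57, and *GUCY2C* overlaps a gene on the opposite strand. The gel-forming mucin *MUC5B* stood at 5.83, 9.31 and 5.88 CPM in siCont and at 1.34, 1.25 and 1.61 CPM in siBACH1, lower in every siBACH1 library, a log2 change of -2.31 ± 0.28. The brush border cadherin *CDH17* and the surface antigen *GPA33* fell by 0.63 ± 0.067 and 0.88 ± 0.11. Of 9 keratins 0 rose and 4 fell (0 and 4), without a match in any: *KRT16* (-2.68 ± 0.32), *KRT23* (-1.79 ± 0.28), *KRT7* (-1.48 ± 0.32) and *KRT19* (-0.41 ± 0.070). Among 8 genes of S100 calcium-binding proteins 0 rose and 3 fell (2 and 3), led by *S100A2* (-1.80 ± 0.31).

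**Figure D5:**
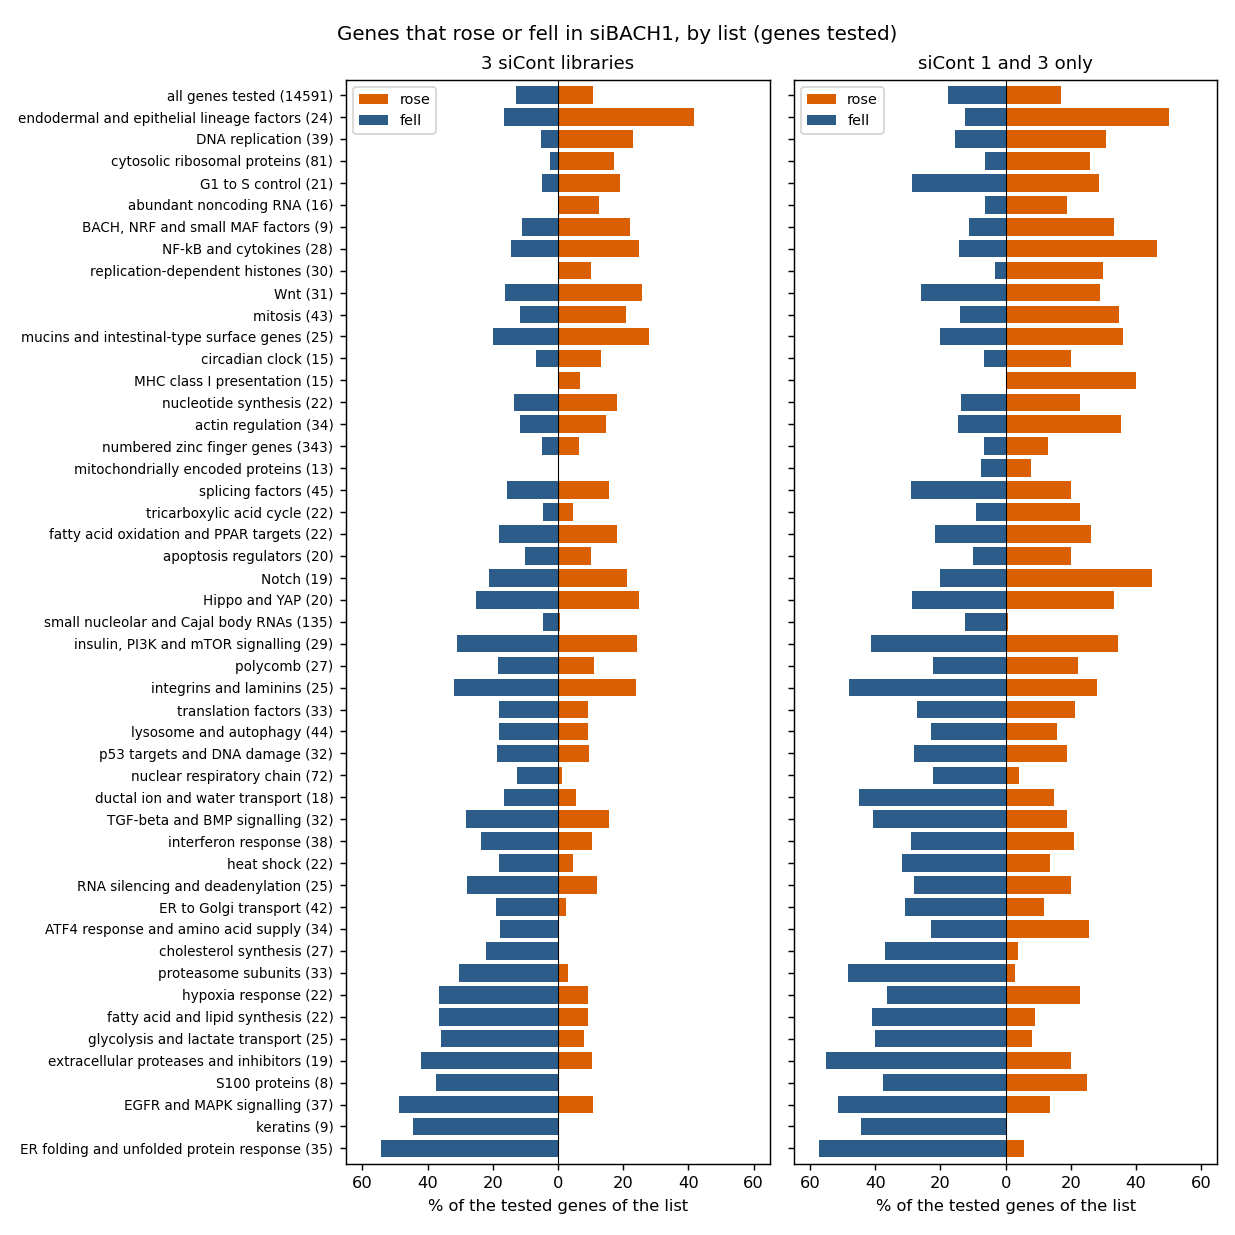
Percentage of the tested genes of each list that rose (orange, to the right) or fell (blue, to the left) at an adjusted p below 0.05, with 3 siCont libraries on the left and without siCont replicate 2 on the right; the number tested stands in brackets and all genes are the top row. ER folding, keratins and EGFR and MAPK signalling have the largest excess of falls with all libraries, and the ATF4 response gains rises only in the right panel.

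Several regulators of chromatin and RNA were among the changed genes. In the polycomb list, whose complexes silence chromatin, 3 of 27 rose and 5 fell (6 and 6 without siCont replicate 2). *CBX2*, a chromodomain subunit, stood at 1.61, 0.318 and 2.88 CPM in siCont and at 11.6, 15.6 and 11.5 CPM in siBACH1, low in siCont and several times higher in every siBACH1 library, a log2 change of 2.94 ± 0.46, and *CBX6* rose by 1.02 ± 0.12. *YAF2*, *PCGF5* and *PHC3* fell by 1.70 ± 0.18, 1.28 ± 0.21 and 0.97 ± 0.11, all with a match. Of the 5 falls in the list 4 carried one, and of all 27 tested 12. In RNA silencing and deadenylation 3 of 25 rose and 7 fell (5 and 7). A match was carried by 6 of the 7 and by 11 of all 25. *DICER1*, which cuts microRNA precursors, rose by 1.19 ± 0.12, and the exonuclease *XRN1* and the exporter *XPO5* fell by 0.98 ± 0.10 and 0.67 ± 0.089. Among 45 splicing factors 7 rose and 7 fell (9 and 13). The 7 falls all carried a match, as did 18 of the 45 tested. They included *MBNL3* at 94.0, 84.4 and 104 CPM in siCont and at 28.0, 28.7 and 31.4 CPM in siBACH1. The groups were far apart, with a log2 change of -1.68 ± 0.10, and *HNRNPA1*, which has many processed copies, rose by 0.75 ± 0.10. Of 33 translation factors 3 rose and 6 fell (7 and 9), among them the cap-binding *EIF4E* (-0.78 ± 0.15) with a match. Of 343 numbered zinc finger genes 22 rose and 17 fell (45 and 23 of 345). A match was carried by 15 of the 17 and by 114 of all 342 with a 3′ UTR. Of 135 small nucleolar and Cajal body RNAs 1 rose and 6 fell with all libraries, DESeq2 called 16 falls, and 1 rose and 17 fell without siCont replicate 2.

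Of 9 genes of BACH, NRF and small MAF factors, which include *BACH1*, 2 rose and 1 fell (3 and 1 without siCont replicate 2). *MAFG*, a small MAF protein, rose by 0.48 ± 0.11 and *KEAP1*, which marks NRF2 for breakdown, by 0.40 ± 0.10. Promoters were searched for the site bound by heterodimers of BACH1 or NRF2 with small MAF proteins, TGACTCAGC, and its looser form TGANTCAGC, on both strands, in 250 bases before to 50 after the start of each gene (RefSeq, GRCh38.p14, 9989 tested genes matched by symbol). The first holds every match of the second with C at the open base, so the sets overlap. TGACTCAGC occurred in 0.461% of the 9989 promoters and in 0.383% of those not called. Over all called genes the shares were close, at 9 of 1228 (0.733%) that rose and 9 of 1446 (0.622%) that fell. It occurred in 3 of 157 (1.91%) genes that rose by 1 or more on the log2 scale and in 4 of 444 (0.901%) that fell by as much. The looser form occurred in 6 of those 157 (3.82%), in 8 of those 444 (1.80%) and in 1.07% of all tested. Over all called genes it occurred in 19 of 1228 (1.55%) that rose and in 20 of 1446 (1.38%) that fell. Of 247 genes that rose in both experiments by any amount, 2 (0.810%) held TGACTCAGC, and both were among the 36 that rose by 1 or more in both. Those 2 are *PIR*, pirin, which rose by 1.65 ± 0.19 and by 1.58 in the knockout, and *ME1*, cytosolic malic enzyme, which rose by 1.44 ± 0.11 and 1.70. *ME1* belongs to the antioxidant list that was otherwise set aside. The third gene is *SLC26A1*, a sulfate transporter, at 2.1 ± 0.33. Their promoters are shown because these genes joined a large rise with the site, in capitals on the strand of the gene or as its reverse complement.
PIR (chrX:15493284-15493583, minus strand, site starting at base 27 from the start of the gene): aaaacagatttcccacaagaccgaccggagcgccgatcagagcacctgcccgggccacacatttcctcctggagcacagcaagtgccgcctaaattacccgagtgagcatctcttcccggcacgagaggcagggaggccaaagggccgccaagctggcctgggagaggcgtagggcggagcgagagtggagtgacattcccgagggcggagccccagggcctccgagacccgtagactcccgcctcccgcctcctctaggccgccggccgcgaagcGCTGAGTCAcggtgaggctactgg
ME1 (chr6:83431002-83431301, minus strand, site starting at base -137 from the start of the gene): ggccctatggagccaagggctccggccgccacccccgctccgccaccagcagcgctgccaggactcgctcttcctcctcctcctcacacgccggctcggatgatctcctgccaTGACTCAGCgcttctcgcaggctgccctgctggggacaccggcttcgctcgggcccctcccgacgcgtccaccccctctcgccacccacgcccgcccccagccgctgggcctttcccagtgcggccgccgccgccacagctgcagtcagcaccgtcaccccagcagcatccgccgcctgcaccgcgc
SLC26A1 (chr4:993355-993654, minus strand, site starting at base -83 from the start of the gene): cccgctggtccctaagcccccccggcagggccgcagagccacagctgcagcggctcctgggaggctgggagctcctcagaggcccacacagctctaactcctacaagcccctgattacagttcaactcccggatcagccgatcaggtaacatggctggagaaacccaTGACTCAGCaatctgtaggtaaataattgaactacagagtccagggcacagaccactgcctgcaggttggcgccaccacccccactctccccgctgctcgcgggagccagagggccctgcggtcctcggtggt

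The rises and falls overlapped in part with those of the knockout, which shares no control library with this experiment. Of 1545 genes that rose in siBACH1 and were tested in the knockout, 20.7% rose and 14.2% fell there. Of 1873 genes that fell, 18.5% fell and 14.3% rose there. Of genes not called in siBACH1, 9.81% rose and 10.8% fell. These shares describe 2 experiments that differ in time, selection and reagent as well as in method.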

How the data were processed

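The authors deposited raw read counts per gene, 1 table per experiment, with 57820 identifiers. Per the submitters' processing notes they used HTSeq 0.9.1 and SAMtools with hg19; the sources used here name no aligner, counting mode or strand setting, so genes that overlap on opposite strands cannot be told apart. Every count column matched a sample title. Symbols came from current gene names for 51996 identifiers and from GENCODE 29 for 342, 3′ UTRs from GENCODE 29 and promoters from RefSeq (GRCh38), never set against hg19 coordinates; 11 listed symbols found no identifier and were not used here.

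Counts were tested with edgeR 4.0.16 (R 4.3.3): TMM scaling, filterByExpr with a minimum count of 10, the two-sided quasi-likelihood test, and p-values adjusted by Benjamini-Hochberg over every tested gene, with calls below 0.05. The standard error is the log2 change divided by the square root of F. Each experiment was fitted alone, and the difference in 1 fit of 12 libraries. No replicate block was used, other than as an alternative. Alternatives used limma 3.58.1 and DESeq2 1.42.0. The exact test of *BACH1* used log2(CPM + 1). Fits were tested on simulated counts.

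The members, the lists and the 3′ UTR words were chosen with earlier results of these data known, so list counts are descriptions, and the 4 antioxidant, heme, epithelial and mesenchymal lists were set aside. Named are *BACH1*, the largest 12 changes each way by the smaller of the log2 changes with and without siCont replicate 2 (called in both, at 3 or more in mean log2 CPM, groups that do not overlap), list members with the largest changes or a telling role, and genes that depend on siCont replicate 2. Some genes are not reported here. *PIR* and *SLC26A1* were chosen after their values were seen. *ME1*, of the antioxidant list, is shown only in the search of promoters. The labels do not say whether replicates came from separate cultures. The p-values therefore reflect only how far these libraries scatter, and that scatter may be technical.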

Additional observations from a re-analysis of the deposited data

Results flagged for a closer look

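Of the 24 named genes and the list members in the text, 15 changed in opposite directions in siBACH1 and in the knockout, by at least 1 on the log2 scale in siBACH1, with a called difference between the experiments in 1 edgeR fit of all 12 libraries. The difference is the siRNA change minus the knockout change, on the log2 scale. It was -3.25 for *CPD*, -2.69 for *DPY19L1*, -3.95 for *LONRF2*, -3.40 for *PAQR3*, -3.01 for *PBK* and -2.93 for *SKAP2*, the 6 among the largest falls that rose in the knockout. *MUC5B* had the widest gap of the 15, -8.04 (edgeR adjusted p = 4.04e-11), with a change of -2.31 ± 0.28 in siBACH1 and 5.74 ± 0.18 in the knockout, where it stood at 1.93, 1.26 and 1.06 CPM in sgCont and at 76.2, 76.1 and 79.8 CPM in sgBACH1. *FOS* differed by -2.51, *PLK3* by -1.92, *KRT23* by -2.53, *MBNL3* by -3.03, *FERMT1* by -2.08, *MSMO1* by -1.91 and *RPS24* by -1.99, all lower in siBACH1 and higher in sgBACH1. *CBX6* differed by 1.71, higher in siBACH1 and lower in sgBACH1. Of the 14 genes lower in siBACH1, 10 carry the 3′ UTR match, and *DPY19L1*, *MUC5B*, *KRT23* and *PLK3* do not. The experiments also differ in time, infection and selection, and what sets these genes apart was not tested.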

How the results depend on the processing

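The 24 named genes kept direction and call under all 14 alternatives, except that the fit without genes that carry a 3′ UTR match holds only 12 of them. Being called without siCont replicate 2 was a condition of their choice, so that alternative could not lose them. Groups that do not overlap and a large change were conditions too, which favours stability under the others. The count of 3481 called genes stayed within 1.5 times under upper quartile scaling, RLE size factors, DESeq2, limma-voom, no filter, a minimum count of 50, and without siCont replicate 1, 2 or 3. By upper quartile scaling 1820 rose and 1757 fell. The total was 1934 without the genes that carry a match (11727 genes tested), a fit of fewer genes. The main fit gave 1390 rises and 940 falls among its 11714 genes without a match. Leaving out 1 library in turn gave 2002 to 5121 calls, with 2002 without siBACH1 replicate 1, 2078 without siBACH1 replicate 2 and 2096 without siBACH1 replicate 3. With the replicate number as a block (replicate block) edgeR called 3196 genes, and same-numbered libraries correlated by only 0.0113 to 0.0591 in their deviations, so the numbers were not taken to pair the libraries. Of 227 genes named, 35 to 37 lost the call without a siBACH1 replicate, 16 and 13 without siCont replicate 1 and 3, and 1 (*PROX1*) without siCont replicate 2. Among the genes named, signs turned only for 7 that were not called with all libraries. *CEBPG* was 0.096 by limma-voom, 0.069 with the block, 0.009 by upper quartile scaling and 0.44 without siCont replicate 2. *GDF15* was 0.95, 0.67 and 2.13, *S100P* 0.23, 0.036 and 1.22, and *VEGFA* 0.32, 0.27 and 0.92 by limma-voom, with the block and without siCont replicate 2. *SLC1A4* was 0.28 by limma-voom and 1.98 without siCont replicate 2, *XBP1* 0.22 without it, and *MT-CO2* 0.021 without siCont replicate 3. Leaving out 1 library in turn gave lowest and highest values of -0.23 and 0.44 for *CEBPG*, -0.98 and 2.13 for *GDF15*, -0.22 and 0.021 for *MT-CO2*, -1.30 and 1.22 for *S100P*, -2.48 and 1.98 for *SLC1A4*, -0.39 and 0.92 for *VEGFA* and -0.65 and 0.22 for *XBP1*. By limma-voom *EREG* (-1.63), *FOSB* (-1.20), *IGFBP1* (-2.27) and *MTHFD2* (-1.33) were not called, nor was *MTHFD2* by DESeq2 (-1.80); *ID2* and *LUM* were not called with the block or with no filter, nor *PROX1* with the block. No list turned from more rises to more falls, or the reverse, under upper quartile scaling, RLE size factors or DESeq2. Without the genes that carry a match, however, 59 of 104 counts of rises or falls in a list moved by over 1.5 times. That setting takes members out of the lists, so lower counts follow from its design and it does not measure stability. Of the 104 counts, 42 to 46 moved as far without a siBACH1 replicate and 43 without siCont replicate 2. The number was 17 and 15 without siCont replicate 1 and 3, 20 with no filter, 11 with the block and 0 to 6 under the others. The cause of these latter changes was not tested. At this depth, in counts drawn with known changes, changes of 1.5, 2 and 4 fold among 14591 genes were recovered in 31.3%, 59.7% and 93.9% of cases, and 8.89% of calls were false, so small changes of single genes may be missed.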

Other observations

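Some further groups were small or mixed. Of 18 tested genes of ductal ion and water transport 1 rose and 3 fell (3 of 20 and 9 without siCont replicate 2). The falls were *ANO6*, the sulfate transporter *SLC26A2* (-1.38 ± 0.25) and the sodium, potassium and chloride cotransporter *SLC12A2* (-0.82 ± 0.12), all with a 3′ UTR match. Of all 18 tested, 5 carried one. Of 15 clock genes 2 rose and 1 fell (3 and 1). The period genes *PER3* and *PER2* rose by 0.65 ± 0.13 and 0.55 ± 0.11, and *CLOCK* fell by 0.75 ± 0.15. Of 22 genes of nucleotide synthesis 4 rose and 3 fell (5 and 3), with *IMPDH1*, of guanine nucleotide synthesis, at 0.57 ± 0.10 and *PAICS*, of purine synthesis, at -0.58 ± 0.081. Of 16 abundant noncoding RNAs 2 rose and 0 fell with all libraries, *EPB41L4A-AS1* by 0.63 ± 0.11 and *ZFAS1* by 0.33 ± 0.082, and 3 rose and 1 fell without siCont replicate 2.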
